A study of Mus musculus with 12 samples.

Results

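Hypothalamic RNA of late high alcohol drinkers was compared with that of water-only controls, 3 arrays against 3. The members were chosen by title, as the 3 arrays labelled late alcohol drinker and the 3 labelled water group, so that 6 of the 12 arrays of the series entered the comparison. All mice were male ICR mice, 3 weeks old at the start, and adapted for 5 days to a pair of drinking tubes that both held water. The water group then kept water in both tubes, while alcohol mice had 5% or 10% alcohol in one tube and water in the other until sacrifice, on day 51 by the labels and later by the design text. The labels define a late high drinker only by that name, and do not tie an alcohol concentration to a pool. Each array held pooled RNA, of 3 mice for each water pool and of 1 to 3 mice for each alcohol pool, so that the spread between arrays is a spread between pools. The signal is the scanner's processed Cy3 intensity, given here as a log2 level minus the 75th percentile of the same array, so that a level of 0 equals that percentile. With 3 arrays a group, their number limits the precision.

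The hypothalamus joins the endocrine and the nervous system. Its arcuate neurons carry opposing feeding signals, one population through melanocortins cut from Pomc and another through Agrp and Npy, and other nuclei make vasopressin, oxytocin and the releasing hormones of the pituitary. Voluntary alcohol drinking acts on several of these circuits, among them opioid and stress peptides.

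All 3 water arrays lay on 1 slide, with low alcohol drinker pool 1, and all 3 late arrays lay on another, with early alcohol drinker pool 3. The slide of the water arrays was also scanned on a later day. Slide and group cannot be told apart in a direct comparison of the 6 arrays, and no value within a slide can be had. The 75th percentile of the raw signal ran from 1579 to 1760 in water and from 1828 to 1853 in late arrays, and no array had a saturated spot.

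Across 32491 probes, late and water arrays did not differ at an adjusted p of 0.05 for any probe (limma, Benjamini-Hochberg), and the smallest adjusted p was 0.0637. With only probes well above background on all 6 arrays, 270 of 27803 passed, and without late pool 3, 94 of 32383 did. At an unadjusted p of 0.05, 5985 probes passed, which is 18.4% of those tested, against 1625 that would pass if no probe differed. Of them 2783 were higher and 3202 lower in late drinkers, so that 46.5% were higher. That split depended on the scaling. It was 82.9% higher without scaling, where the median probe stood 0.13 higher in late arrays, 31.7% after normexp background correction, and 82.4% when quantile normalization followed the signal/noise filter. Among 30937 probes with a value on all 6 arrays, the groups did not overlap in 7971, or 25.8%, with 12.4% higher and 13.4% lower in late drinkers. The share of variance that lay between the groups was 33.8%, the largest of all 20 ways to divide the 6 arrays in threes (exact permutation test, 1-sided p = 0.1, the smallest p that the design allows). With quantile normalization after the signal/noise filter the share was 27.6% and no longer the largest (exact 1-sided p = 0.2). Late pool 3 was the nearest of the late pools to water. On the first principal component, which held 36.0% of the variance, water pools lay at -20.6, -25.6 and -20.9, and late pools at 27.5, 33.1 and 6.46.

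The direction of a difference moved with the sequence of the probe. Each probe is a 60-base DNA, and the number of adenines in it is a property of the design that no signal was used to choose. Of 919 probes with 1 to 9 adenines, 17.7% had a higher mean level in late than in water arrays, with a median difference of -0.20 on the log2 scale. Of 1389 probes with 25 to 33 adenines, 87.7% were higher, with a median difference of 0.24. Among probes past the unadjusted threshold the contrast was sharper, with 3 higher and 377 lower in the first class and 530 higher and 8 lower in the last. Over the 30937 probes, which share arrays and labeling, the adenine count and the difference had a Pearson r of 0.37.

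**Figure D1:**
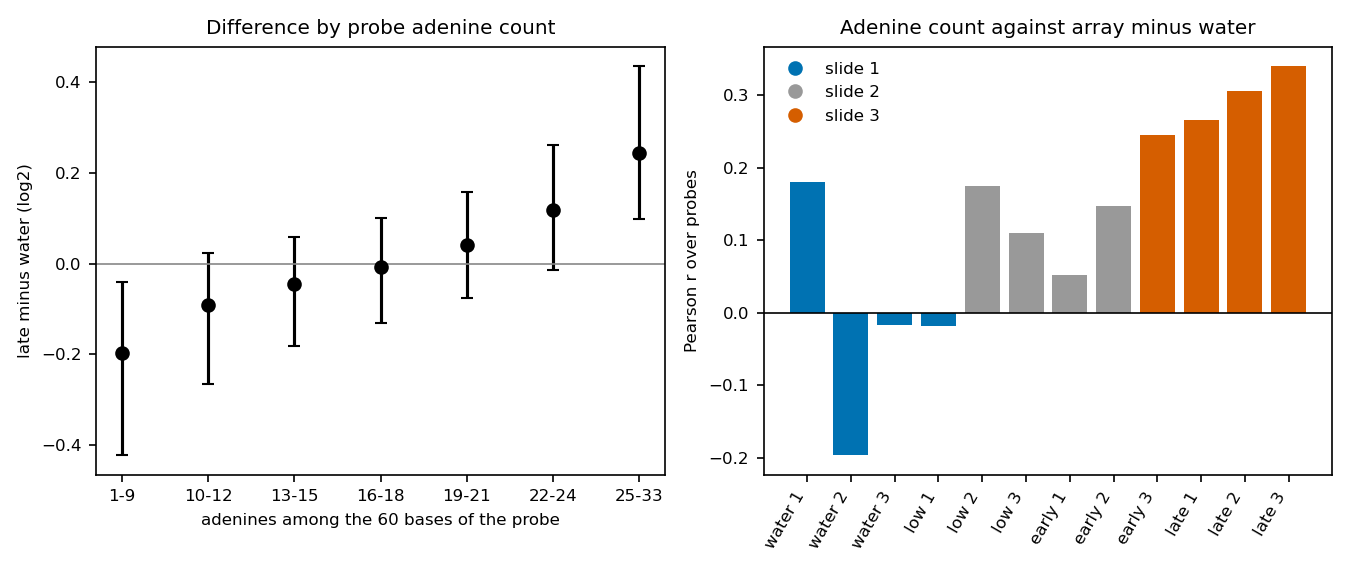
Left, late minus water difference (log2) of 32491 probes by the number of adenines in the probe, with points for the median and bars from the lower to the upper quartile. Right, Pearson r over 29521 probes between adenine count and the array's level minus the water mean, or minus the mean of the other water arrays for a water array, with arrays coloured by slide. Medians run from -0.20 to 0.24, and the 4 arrays of slide 3 have r between 0.25 and 0.34.

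Every array was set against the water mean to see which arrays carried this. The r of adenine count with that difference was 0.27, 0.31 and 0.34 for late pools 1, 2 and 3, and 0.25 for early pool 3, which shared their slide. It was -0.02 for low pool 1, on the slide of the water arrays, and between 0.05 and 0.18 for the 4 pools of the remaining slide. The water arrays themselves, each against the mean of the other 2, gave 0.18, -0.20 and -0.02. For thymine, the r ran from -0.39 to -0.25 in the 4 pools of the remaining slide and from -0.17 to -0.12 in late pools. For guanine it was 0.27 and 0.23 in low pools 2 and 3, and 0.03 to 0.05 in late pools. These values share the water mean and are given as a description. The part of slide, labeling or drinking in them was not tested.

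Probes of the same gene showed it too. In 3403 genes the probes with most and fewest adenines were at least 5 adenines apart, and the richer probe had the higher late minus water difference in 2538, or 74.6%. Of 363 genes with at least 2 probes past the unadjusted threshold, well above background on all arrays compared, 93 had probes in opposite directions. The probe with more adenines was the higher one in 80 of them, and in 56 of the 59 whose probes were at least 5 adenines apart. Of the 4 of these genes with the widest gap in adenines, 3 are shown, with the first 30 of the 60 bases of each probe, 5′ to 3′ as the scanner files give them, and adenines in capitals.

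Sdc3, 7 adenines in the probe: AtctgccccAgActgtgtccttAtgAcccc
Sdc3, 27 adenines in the probe: gAgttcAtggccAAAActtAAAtAAgAgAA
Dlgap2, 10 adenines in the probe: cccAgcctgcAcctgccAgccAtAAtgggg
Dlgap2, 25 adenines in the probe: ctgcAccAgctgAAgctcAAtgActggAAg
Arglu1, 14 adenines in the probe: cAttgAAAAtgctgcttgAgAtgAAtAAtt
Arglu1, 29 adenines in the probe: ActAgAAcAAgAAcgAcAgcgtcAgcAAAA

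Sdc3 encodes syndecan-3, a heparan sulfate proteoglycan of neurons. Its adenine-poor probe (mm9 chr4:130378900-130378959) read -1.55, -1.41 and -1.52 in water pools and -1.98, -2.13 and -2.08 in late pools. Its adenine-rich probe (chr4:130382015-130382074) read 1.59, 1.52 and 1.46 in water and 1.87, 1.84 and 1.69 in late pools. All 3 late pools were thus below all water pools on one probe, by 0.57 ± 0.08 (SE, n = 3 a group), and above them on the other, by 0.28 ± 0.08. Another Sdc3 probe differed by 0.37. For Dlgap2, a scaffold of the postsynaptic density, the pair differed by -0.39 and 0.32, and for Arglu1, a splicing cofactor, -0.27 and 0.36.

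With each array's levels adjusted for the numbers of A, C and G in the probe, an alternative chosen after seeing the data, 5152 probes passed the unadjusted threshold, 2352 of them higher, and none passed after adjustment. Values from that fit are given below for some genes, and are written as base-adjusted. A gene was read by its brightest tested probe. Of 21727 genes read so, 17.9% passed the unadjusted threshold, 8.00% higher and 9.90% lower, and the median difference was 0.01.

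Appetite peptides held both directions. Pomc, the precursor of α-MSH and β-endorphin, read 3.71, 3.73 and 3.60 in water pools and 3.44, 3.36 and 3.27 in late pools. It was lower in every late pool, by 0.32 ± 0.08 (SE, adjusted p = 0.122), and as low on early pool 3, at 3.38, but stood at 5.01 on low pool 1. Trh, which drives thyrotropin release, was higher by 0.32 ± 0.12, at 0.99, 0.97 and 0.58 in late against 0.49 to 0.58 in water pools, and late pool 3 barely cleared the highest water pool. Pmch, the orexigenic melanin-concentrating hormone of the lateral hypothalamus, read 5.49, 5.58 and 5.52 in late pools and 5.48, 5.17 and 5.01 in water, a difference of 0.31 ± 0.13. Base-adjusted it was 0.25 and did not pass, which left 1 member of the list higher. Of 16 tested members, 2 were past the unadjusted threshold as higher and 1 as lower, beside 8.00% and 9.90% of all genes. The list's median was 0.02 beside 0.01 for all genes. Agrp, at 0.05, and Npy, at 0.25, did not pass, and their groups overlapped.

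Of 20 hunger and satiety receptors 3 were lower and none higher, with a median of 0.01, beside 17.9% of all genes past the threshold in either direction and 9.90% lower. Mc3r, a melanocortin receptor of arcuate neurons, read -0.67, -0.51 and -0.67 in water and -1.17, -1.16 and -1.07 in late pools, without overlap, a difference of -0.52 ± 0.08 (adjusted p = 0.0637). That probe holds 10 adenines and differed by -0.33 base-adjusted, and a second, dimmer probe with 15 differed by 0.38 with overlapping groups.

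Galr3, a galanin receptor, was lower by 0.41 ± 0.08, but its probe holds 5 adenines and the difference was -0.11 with base composition removed. Npy5r, a feeding receptor for neuropeptide Y, was lower by 0.22 ± 0.08. It was -0.20 with base composition removed.

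Among neurohypophysial and stress hormones, 1 of 16 tested members was higher and 1 lower, beside 8.00% and 9.90% of all genes. Tsc22d3, known as GILZ and induced by glucocorticoids, read 1.76, 1.93 and 1.96 in water pools and 2.36, 2.28 and 2.49 in late pools. The difference was 0.50 ± 0.09 (adjusted p = 0.079), and its other 2 probes were higher by 0.33 and 0.47, although none holds more than 15 adenines. Low pool 1, on the water slide, also stood high, at 2.24, and early pool 3 at 2.32. Nr3c2, the mineralocorticoid receptor, was lower by 0.30 ± 0.09, while its second probe differed by 0.05. Avp (0.09) and Oxt (0.28), each on a probe with 9 adenines, overlapped between the groups. Base-adjusted, they were 0.25 and 0.51, and Oxt passed the unadjusted threshold. In the reproductive and growth axis, Dio2, which activates thyroid hormone, was 0.47 higher on average with overlapping groups, and Tacr3, the neurokinin B receptor, was lower by 0.29 ± 0.10 on 1 probe and higher by 0.26 on the other.

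The opioid list and the list of ethanol and acetaldehyde metabolism had no member past the unadjusted threshold, of 6 and of 12 tested. Of all genes 17.9% passed it. Penk and Pdyn, precursors of enkephalins and dynorphins, were 0.12 and 0.16 lower without overlap on their brightest probes, and by 0.03 and 0.07 base-adjusted. A dimmer Penk probe was lower by 0.49 ± 0.12, past the unadjusted threshold, and by 0.52 base-adjusted. Adh1, the classical alcohol dehydrogenase, differed by -0.27 with overlap. Aldh2, the mitochondrial acetaldehyde dehydrogenase, had 2 probes that disagreed. The brighter read -0.00 as a difference, and the dimmer (chr5:122016157-122016216) read -1.77, -1.18 and -1.60 in water against -1.84, -3.41 and -3.73 in late pools, 1.47 lower on average (SE 0.49), with late pool 1 just under the lowest water pool.

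The monoamine, GABA and glutamate lists had 1 of 27, 2 of 19 and 2 of 21 members past the unadjusted threshold, beside 17.9% of all genes. Of 27 monoamine genes only Htr5a, a serotonin receptor, passed, lower by 0.59 ± 0.12 on a dim probe with 10 adenines. Of 19 GABA genes, Gabre was lower by 0.44 ± 0.11, and by 0.62 on its other probe, while Gabrb2, an abundant subunit, was higher by 0.24 ± 0.07. Of 21 glutamate genes, Grin2d was lower by 0.35 ± 0.10 on a probe with 4 adenines and by 0.03 with base composition removed. Slc17a7, a vesicular glutamate transporter of thalamic and cortical neurons, was well above background in all 3 late pools and in no water pool, and no fold is given.

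Potassium channels were the list with the largest count of called members on one side, but not the largest share. The PCR panel had 30.8% of its members called, all higher, beside 27.3% here. Above 0 were 9 of 10 astrocyte genes and 14 of 16 growth factors. Of 22 tested, 6 were higher and none lower past the unadjusted threshold, with 18 above 0 and a median of 0.13, beside 8.00% of all genes higher. Kcnq3, a subunit of the M-current, read -4.94, -4.97 and -5.26 in water and -4.40, -4.55 and -4.43 in late pools, 0.60 ± 0.11 higher. Its probe holds 25 adenines, and early pool 3 stood with the late pools, at -4.39, while the 4 pools of the remaining slide read -4.56 to -3.58. Kcna4, a fast-inactivating channel, read 0.58, 0.58 and 0.71 in water and 1.15, 0.84 and 0.92 in late pools, 0.35 ± 0.10 higher. Kcnj9, Kcnma1, Kcnmb4 and Kcna2 were higher by 0.17 to 0.20, the last of them by 0.09 base-adjusted. With base composition removed 4 of the 22 passed, all higher, and with slide as a block 2 passed, both lower. The list does not hold every such channel, and Kcnj4, outside it, was lower by 1.19 on its brightest probe.

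Immediate early genes, which report recent neuronal activity, had a median of 0.14 over 18 tested. Npas4, an activity-dependent transcription factor, read -1.45, -1.45 and -1.65 in water and -3.38, -3.29 and -2.04 in late pools, 1.38 ± 0.35 lower, with late pool 3 nearest to water. Nr4a2 was higher by 0.34 ± 0.11. Fos varied within both groups, from -2.06 to -1.20 in water and from -2.28 to -0.38 in late pools, and did not part them.

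Clock genes had 2 of 18 members past the threshold, beside 17.9% of all genes in either direction. Per2, a repressor of the clock, read -0.56, -0.35 and -0.42 in water and 0.13, -0.18 and -0.05 in late pools, 0.41 ± 0.10 higher, and Cry2 was higher by 0.30 ± 0.08. The second probe of each gene was 0.21 lower. Sirt1, an NAD-dependent deacetylase, was the only member of 21 in the list of DNA methylation and histone deacetylation to pass. It read 0.26, 0.25 and 0.24 in water and 0.81, 0.72 and 0.61 in late pools, 0.46 ± 0.08 higher, and its second probe was 0.24 higher.

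**Figure D2:**
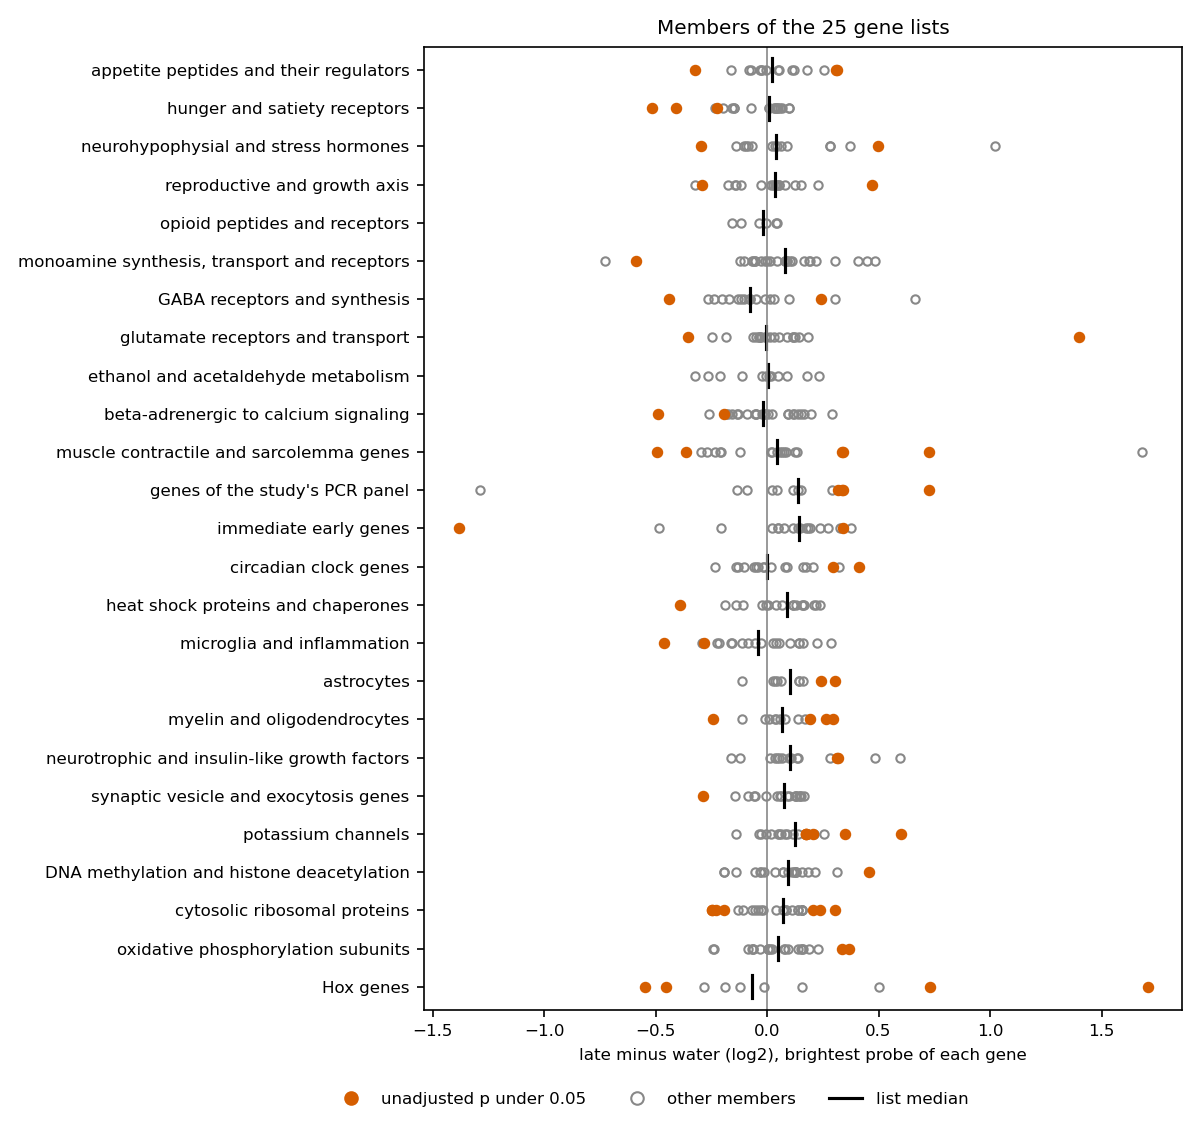
Late minus water difference (log2) for every tested member of 25 gene lists, 1 point a gene from its brightest probe, with filled points past an unadjusted p of 0.05 and a bar at each list's median. List medians lie between -0.08 and 0.14, and potassium channels have 6 filled points, all above 0.

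Of all genes, 8.00% were higher and 9.90% lower past the unadjusted threshold, and the lists of this paragraph stand beside those shares. Growth factors had 2 of 16 members higher, Igf1 by 0.32 ± 0.09 and Igf1r, its receptor, by 0.31 ± 0.09. Astrocyte genes had 2 of 10 higher, Fgfr3 by 0.31 and Glul, glutamine synthetase, by 0.24. Myelin genes had 3 of 14 higher and 1 lower. Mbp, a major myelin protein, was higher by 0.30 ± 0.11, Cldn11 by 0.26 and Pdgfra, of oligodendrocyte precursors, by 0.19 (0.18 and 0.15 base-adjusted, neither past the threshold), and Ugt8a was 0.24 lower. Microglial and inflammatory genes had 2 of 20 lower, Cd68 by 0.28 ± 0.07, and Il6, which was not well above background on any of the 6 arrays and gets no fold.

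Housekeeping lists were bright and narrow. Of 25 cytosolic ribosomal proteins, 3 were higher and 4 lower, within -0.25 to 0.31, beside 17.9% of all genes in either direction. Base-adjusted, 3 were higher and 1 lower, and with slide as a block 3 were higher and none lower. Rpl11 was higher by 0.31 ± 0.07 and Rpl6 by 0.24, the latter on a probe with 26 adenines and by 0.07 with base composition removed, and Rps6 was lower by 0.23 ± 0.06. Of 22 subunits of oxidative phosphorylation, Ndufa4 was higher by 0.37 ± 0.08 and Atp5b by 0.34 ± 0.11 (0.26 base-adjusted, not past the threshold). In the synaptic vesicle list Syn2 alone passed, 0.29 lower with 8 adenines, and by 0.12 with base composition removed. In the chaperone list Hsf1, the heat shock factor, alone passed, 0.39 lower with 9 adenines and by 0.13 with base composition removed. The reference genes Actb and Gapdh differed by 0.11 and 0.03 on their brightest probes and did not pass. The Gapdh probe holds 10 adenines, and its base-adjusted difference was 0.21, past the unadjusted threshold. A dimmer Actb probe was 0.30 lower, also past it.

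Hox genes, which pattern the hindbrain and spinal cord and are little used in the forebrain, were mostly not measured, with 10 of 22 tested. Hoxc4 was lower by 0.55 ± 0.09 and Hoxa3 by 0.45 ± 0.11. Hoxc10 was higher by 0.73 ± 0.18. Hoxb4 was higher by 1.71, a value limited by its water group, where only 1 array of 3 was well above background. With slide as a block Hoxc10 was -2.12 and Hoxb4 -1.63. Early pool 3 stood at -4.19 for Hoxb4 and -4.05 for Hoxc10, above every late pool, and low pool 2, on another slide, at -2.88 and -2.02.

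The study examined 13 genes by PCR and chose most of them on these arrays, so their values are a description. Adrb1 and Prkx, borderline there, were added for their place in the dilated cardiomyopathy pathway. On the brightest probe 4 were higher past the unadjusted threshold and none lower, beside 8.00% and 9.90% of all genes. With slide as a block none of these 4 kept its call, and Des and Prkx passed as lower. Of the 4 higher genes, Sgcd, a sarcoglycan of the muscle membrane, read -5.58, -5.68 and -5.49 in water and -4.95, -4.85 and -4.78 in late pools. It was 0.73 ± 0.08 higher on a dim probe with 26 adenines, and 0.56 higher with base composition removed. That probe rose well above background in 2 water pools only and in all late pools. Des (desmin) and Jup (plakoglobin), of the intermediate filament and desmosome, were each higher by 0.34 ± 0.09, and Igf1 is given above. With slide as a block Des was -1.26 and Jup -0.48. Some dimmer probes of others passed as lower, by 0.64 for Adrb1, a β-adrenergic receptor, and by 0.63 for Cacna1d, a calcium channel. For Adcy1, an adenylyl cyclase, it was 0.58 and 0.31 (0.48 and 0.16 base-adjusted, the latter not past the threshold). For the integrin Itga4 it was 0.69. In Gnas, the complex locus of the stimulatory G protein, 3 probes were lower by 0.75 to 0.77 (0.59 to 0.74 base-adjusted). Those Gnas probes lie at chr2:174109894, chr2:174125482 and chr2:174158317. Bright Gnas probes at chr2:174167396 and chr2:174167177 differed by -0.09 and -0.00013. Which transcripts of the locus each probe reads was not tested. Other dimmer Gnas probes differed by 0.23, -0.00013 and 1.44, the last with 4 values, well above background on 1 water and 2 late arrays. Another dimmer Cacna1d probe differed by -0.10, and a further one, well above background on no array, gets no fold. None of these passed. The brightest probes of these 5 genes differed by 0.15, 0.14, 0.29, -0.09 and -1.29 and none passed, although that of Adcy1 did base-adjusted, at 0.35. The Adrb1 probes hold 17 adenines on the brighter and 8 on the dimmer, and the dimmer was still 0.48 lower base-adjusted, past the unadjusted threshold. Tnni3, cardiac troponin I, differed by 0.04, while its dimmer probe was 0.39 higher without overlap, past the unadjusted threshold, and 0.22 base-adjusted, not past it. The brightest probe of Prkx differed by -0.13 (-0.18 and past the threshold base-adjusted), Adcy3 by 0.02 and Cacnb4 by 0.12. Base-adjusted, Tnni3 was 0.13 and the brightest Cacna1d probe 0.05, and neither passed. In the wider lists around them, 2 of 26 genes from β-adrenergic receptors to calcium channels were lower, beside 9.90% of all genes. They were Cacna2d2, by 0.49 ± 0.14, and Ryr2, the ryanodine receptor, by 0.20 ± 0.07. Of 21 muscle genes 3 were higher and 2 lower, beside 8.00% and 9.90% of all genes. Mybpc3, a myosin-binding protein, was among the lower, by 0.49 ± 0.07.

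The largest differences among non-overlapping probes past the unadjusted threshold and well above background on all 6 arrays were then listed, 10 in each direction. Plin4, a coat protein of lipid droplets (chr17:56240055-56240114), led those that were higher. It read -1.58, -1.05 and -1.42 in water and 0.17, -0.09 and 1.60 in late pools, 1.91 ± 0.44 higher (3.75-fold, adjusted p = 0.114), on a probe with 11 adenines. Other alcohol pools ranged from -1.86 in early pool 1 to 0.11 in early pool 3, with low pool 1 at -0.79.

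Gata3, a transcription factor of midbrain GABA neurons and of lymphocytes, was higher by 1.32 ± 0.23, at -3.79, -3.99 and -3.14 in late against -5.15, -4.82 and -4.92 in water pools, and early pool 3 was higher still, at -2.93. Orm3, an acute-phase protein, was higher by 1.18 ± 0.23, with early pool 3 again above the late pools, at -3.23, and so were low pools 2 and 3, on another slide, at -3.09 and -3.57. Wfdc17, a secreted protein of myeloid cells, was higher by 1.13 ± 0.13, at -3.45, -3.44 and -3.70 in late pools, and early pool 3 lay between the groups, at -4.23, while early pool 2, on another slide, lay above the late pools, at -3.11. Kirrel2, an adhesion protein, was higher by 1.11 ± 0.22, and Ipw, an imprinted noncoding RNA, by 1.11 ± 0.25. For Kirrel2, low pools 2 and 3 lay above every late pool, at -2.37 and -3.06. Its dimmer probe, well above background on 1 array a group, differed by -0.17 with overlap. Irx1, a homeobox gene, was higher by 1.36 ± 0.43 on a dim probe and lower by 0.21 on its brighter one, which holds 10 adenines and was 0.07 lower base-adjusted. The clone-named entries 5730410E15Rik and B430319G15Rik were higher by 1.57 ± 0.53 and 1.31 ± 0.54, led by late pool 1. Other probes of 5730410E15Rik differed by 0.07, on the brightest, and 0.57 and did not pass, nor did B430319G15Rik base-adjusted, at 1.19. The last of the 10, a transcript without a gene symbol, was higher by 1.27 ± 0.40.

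Rab27a, a GTPase of secretory granules (chr9:72944668-72944727), led those that were lower. It read -1.79, -1.91 and -1.66 in water and -3.81, -3.88 and -3.11 in late pools, 1.81 ± 0.21 lower (adjusted p = 0.0637), and its second probe was 0.69 lower. Early pool 3 lay between, at -2.44, and early pool 1, on another slide, stood with the late pools, at -3.80. Rbbp4, a histone-binding protein of chromatin complexes, was lower by 1.41 ± 0.21 on one probe and by 0.92 on its brightest, while 2 others differed by 0.63 and 0.04, the former with 25 adenines and annotated on the opposite strand.

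Vdac1, the main pore of the outer mitochondrial membrane, read 3.03, 2.93 and 3.40 in water and 1.09, 0.90 and 2.46 in late pools on one probe (chr11:52202560-52202619). On another (chr11:52202733-52202792) it read 5.25, 5.23 and 5.49 in water and 4.27, 4.24 and 5.03 in late pools. Both probes were lower in late pools, by 1.64 ± 0.41 and 0.81 ± 0.23, and on both late pool 3 was nearest to water. Their first 30 bases are shown as a pair that moved together although one has 9 adenines and the other 16.

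Vdac1, 9 adenines in the probe: gcgtgAtggAgccAgtcAttcAggAAttAA
Vdac1, 16 adenines in the probe: AAcActAgggAtttcAActgAttcctcttg

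Metrn, the glial neurotrophic factor meteorin (chr17:25931917-25931976), read 2.29, 2.31 and 2.41 in water and 0.19, 0.28 and 1.92 in late pools, 1.54 ± 0.46 lower, and its second probe was 0.96 lower. Npas4 and the dimmer Aldh2 probe, given above, were also among the 10. The other 4 had no gene symbol and were lower by 1.44 to 1.49.

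**Figure D3:**
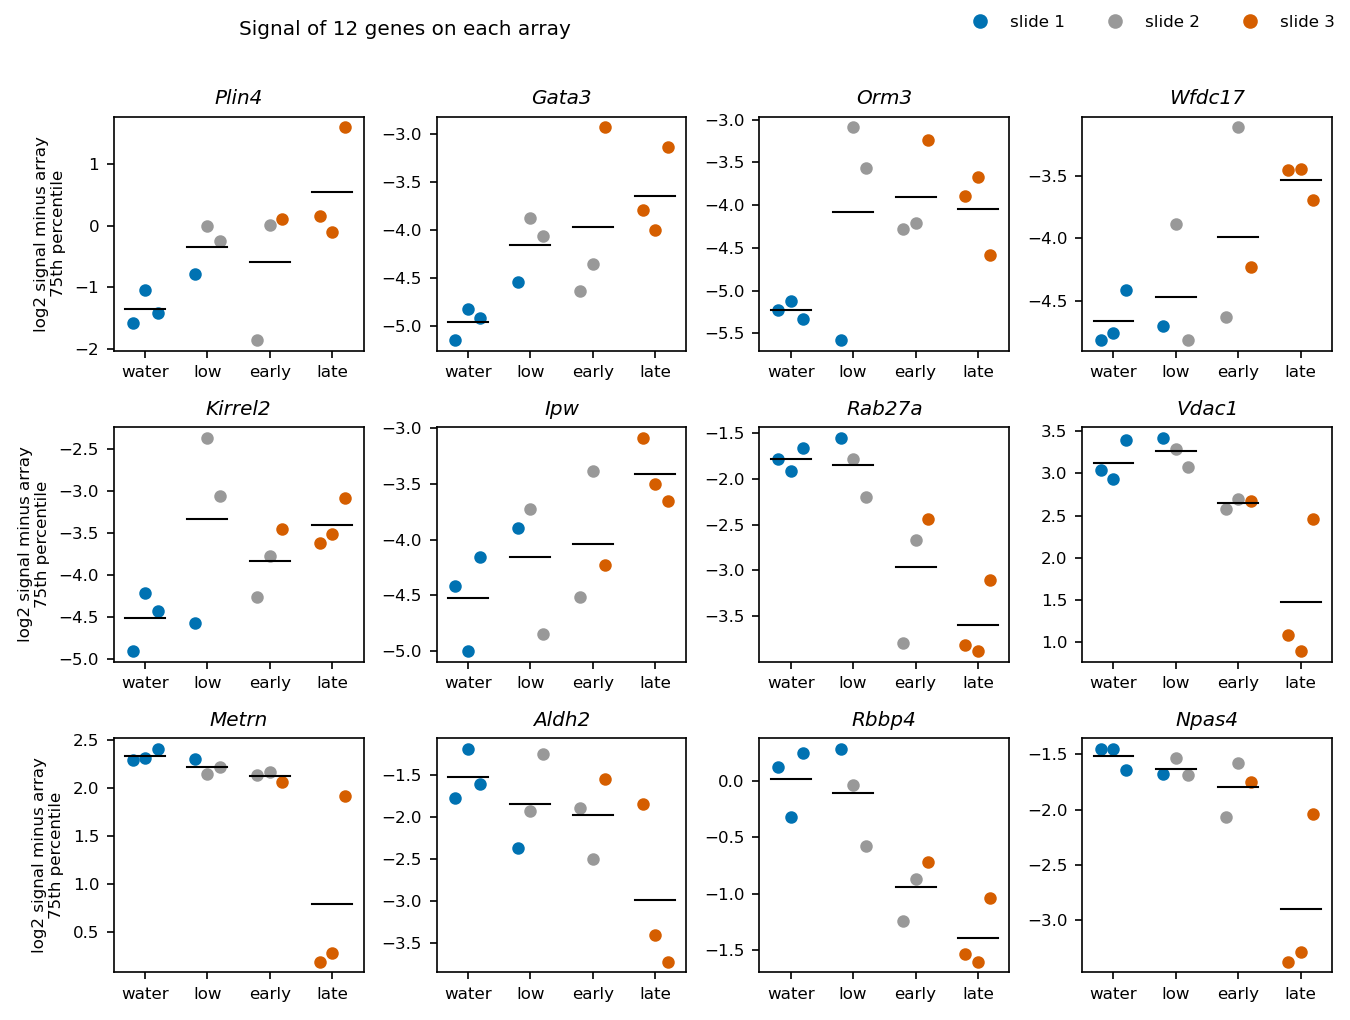
Log2 level of 12 genes, relative to the 75th percentile of each array, on the 12 arrays by group, with points coloured by slide and a line at each group's mean. For Aldh2, Rbbp4, Vdac1 and Metrn the probe shown is not the gene's brightest. The brightest Aldh2 probe differed by -0.0035, with overlap. Late pools lie above all water pools in the first 6 genes and below them in the last 6, early pool 3 (slide 3) lies at -2.93 for Gata3 and -3.23 for Orm3, and late pool 3 lies nearest to water for Vdac1, Metrn and Npas4.

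Metrn, Vdac1 and Npas4 share a pattern that was chosen after its values were seen, levels lowest in late pools 1 and 2. Over 29521 probes with a value on all 12 arrays, 54 had both pools more than 0.7 below every other array. All 66 pairs of arrays were counted the same way, and the next had 7. In the upward direction this pair had 1 probe, and the pair with most, low pools 2 and 3, had 146. The 54 probes had a median of 1.30 below the water mean in late pools 1 and 2, and of 0.14 below it in late pool 3, which was under all water pools in 35 of them. Their median adenine count was 16.5, beside 17 for all tested probes.

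Of the 49 symbols in this set, 5 were there with 2 probes, among them Vdac1, Metrn, Kcnj4 and U2af1. Kcnj4, an inward rectifier potassium channel, was lower by 1.22 and 1.19 on its probes. U2af1, a splicing factor, was lower by 1.11 and 1.05. The mice of each alcohol pool are described by pool codes that the labels do not tie to the late pools. What set late pools 1 and 2 apart was not tested.

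**Figure D4:**
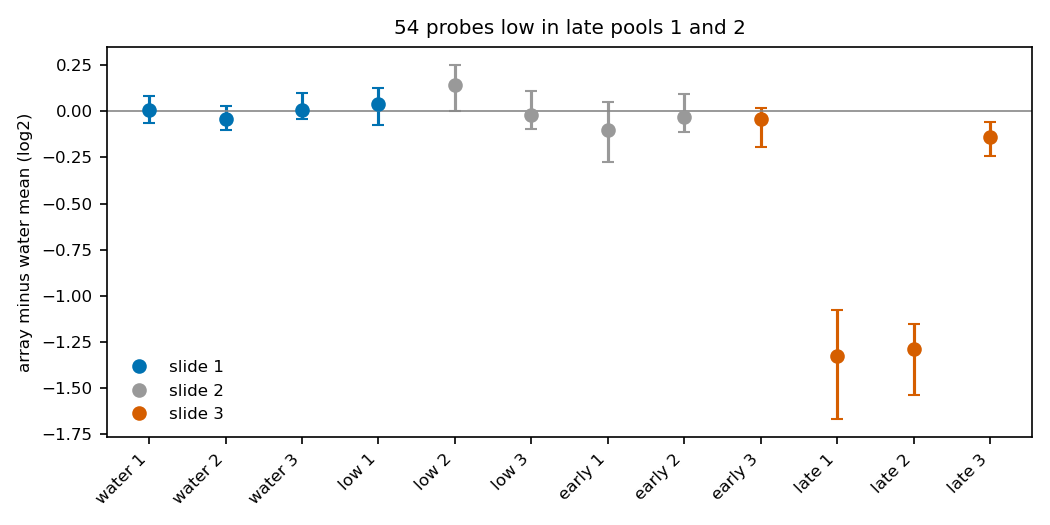
Level minus water mean (log2) of 54 probes on each of the 12 arrays, with points for the median, bars from the lower to the upper quartile and colours for the slide. The probes were chosen for being low in late pools 1 and 2, which lie near -1.30, while late pool 3 lies at -0.14. The choice itself keeps every other array above those 2.

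The tissue label was read against markers, whose counts stand beside 8.00% of all genes higher and 9.90% lower. Of 9 tested hypothalamic markers, Rax, of tanycytes, was higher by 0.77 ± 0.16 and Nr5a1, of the ventromedial nucleus, lower by 0.27 ± 0.09, and the summed signal, overlapping between groups, was 5.82 to 6.57 times the 75th percentile in water and 5.03 to 6.08 in late pools. In bulk tissue, fewer cells of a type and less RNA per cell cannot be told apart. Of 3 blood markers 2 were lower in late pools, with summed signals of 60.2 to 68.6 in water and 37.1 to 48.6 in late pools, Hba-a1 lower by 0.71 ± 0.17 and Alas2 by 0.49 ± 0.14.

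Of 8 thalamic markers 1 was higher past the threshold, with 6 above 0, where 8.00% of all genes were higher and 9.90% lower. With slide as a block their median was -1.36 and 6 passed as lower. Tcf7l2 read 2.15, 2.15 and 1.89 in water and 2.72, 2.59 and 3.06 in late pools, 0.73 ± 0.14 higher, and the 8 markers summed, with overlap, to 13.3 to 15.1 in water and 15.1 to 25.7 in late pools. Of 5 striatal markers 2 were lower, among them Adora2a by 0.51 ± 0.11, with sums of 3.98 to 4.38 against 3.39 to 3.73. Choroid plexus sums were 2.62 to 3.37 against 2.34 to 2.62, and Aqp1 and Clic6 were lower by 0.53 and 0.19. Of 6 pituitary markers 3 were lower, among them Lhb by 0.62 and Prl, which was well above background on 2 of 3 arrays in each group, and the sums, 3.28 to 12.4 and 3.95 to 6.46, overlapped. Cortical sums also overlapped, at 1.28 to 1.43 and 1.14 to 1.31, with Emx1 lower by 0.34, and so did those of vessels and meninges, with no marker of 8 past the threshold. The part of dissection in these gene differences was not tested.

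The other 6 pools were placed on 5088 to 5231 probes that passed the unadjusted threshold without overlap, with the water mean at 0 and the late mean at 1. These probes were chosen on the water and late arrays. Low pool 1, on the water slide, had a median position of 0.03, and 14.3% of the probes were nearer to the late mean. Early pool 3, on the late slide, had a median of 0.51, with 50.5% nearer to late. The 4 pools of the remaining slide lay between 0.13 and 0.39, but not alike in both directions. Low pool 2 stood at 0.83 on probes higher in late pools and at -0.28 on those lower. Taking slide as a fixed block in a fit of all 12 arrays, which links water to late pools only through the low and early pools, 2431 probes passed the unadjusted threshold, 7.80% of 31170, with 485 higher and 1946 lower and none past an adjusted p of 0.05. The differences of Rab27a, Vdac1, Metrn, Rbbp4 and Npas4 kept their direction in that fit, and of these only Rab27a passed its unadjusted threshold, at -2.17, -1.44, -1.34, -1.15 and -1.52, and those of Plin4, Wfdc17 and Tsc22d3 did so without passing it, at 0.21, 1.15 and 0.14. Pomc turned to 1.40, Gata3 to -0.81, Orm3 to -2.08, Kcnq3 to -0.70, Sgcd to -0.64 and Tcf7l2 to -1.13. Of these 6, Pomc, Orm3 and Tcf7l2 passed the unadjusted threshold in the turned direction. Low pool 1 alone ties the water slide to the others in that fit, and early pool 3 alone the late slide. Low pool 1 read 5.01 for Pomc and -5.58 for Orm3. Low pools 2 and 3 read 3.47 and 3.49 for Pomc, and -3.09 and -3.57 for Orm3.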

How the data were processed

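The authors deposited one scanner file per array, with signal intensity on a linear scale that Agilent Feature Extraction (10.5.1.1 in the files) had corrected for background and detrended, and no scaling between arrays. A deposited table of signal intensity per probe served as an alternative. Here, log2 intensities of 43379 non-control spots were centred on their 75th percentile. Values were dropped where a spot was a non-uniform outlier or its signal was below 2 times the noise, spots of a probe were averaged, and probes with 2 of 3 values in each group were tested.

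The 6 arrays were fitted with limma 3.58.1 in R 4.3.3 (lmFit, eBayes, Benjamini-Hochberg). Named genes were the 10 largest differences each way among probes well above background on all 6 arrays, past an unadjusted p of 0.05 and without overlap, listed genes by order or smallest p, the PCR panel, and Actb and Gapdh. The members and lists were chosen with earlier results of these data known. Probe names were updated by accession against RefSeq genes on GRCm38.p6 for 25245 of 41174 probes, otherwise from the files, and positions are the files' mm9. Probe sequences are those of the scanner files.

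On simulated data with 200 of 32491 probes moved by 1 on the log2 scale, 126 were recovered at an adjusted p of 0.05, with 7 unchanged probes. The simulated noise was drawn independently for each probe, without any part of slide or base composition. In the data 328 probes differed by more than 1, and none passed. Replicate numbers did not pair the arrays, since deviations of same-numbered pools correlated at -0.01, 0.06 and -0.06. Since pools are labelled replicates only, p-values measure the spread between pools. The methods name version 9.5 of the software and a t-test. All alternatives are given after the results. Removal of base composition was added after seeing the data. Quantile normalization was first run on values left by the signal/noise filter, and after that result was seen it was redone on all spots; both are given. Some members of the sets and some probe sequences are not reported here.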

Additional observations from a re-analysis of the deposited data

How the results depend on the processing

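No probe passed an adjusted p of 0.05 in the fit reported, and that held under every scaling, both slide fits, the replicate block and the methods' t-test. It did not hold for probes well above background on all 6 arrays, with 270. Leaving out 1 array at a time gave 0 to 94, with 1 without late pool 2 and 94 without late pool 3. Fewer arrays then entered each fit, and the spread is pooled over both groups.

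The 5985 probes past the unadjusted threshold became 2431 with slide as a fixed block, 3695 with slide as a random block and 3294 with quantile normalization after the signal/noise filter, the form first run, which was replaced after its result was seen. Quantile normalization on all spots gave 6176. The 4542 that also passed a fold of 1.2 or 0.83 became 3000 with all 12 arrays in 4 groups, 2431 with the fixed and 2407 with the random slide block. The 7971 without overlap became 4573 with quantile normalization after the filter. Listed genes past the threshold, 58 in all, became 112 without scaling, 89 with an intensity trend, 38 with quantile normalization after the filter and 32 with the fixed slide block. The PCR panel went from 4 to 2 under normexp and both slide blocks. With the fixed block those 2 were Des and Prkx, both lower, and none of the 4 higher genes kept its call. Leaving out 1 array gave 4018 to 7001, 3590 to 5610, 10009 to 13361, 39 to 71 and 4 to 6 for these 5 counts. The count without overlap rose most without late pool 3 (13361) and without water pool 1 (12456), where 1 group held fewer arrays. The cause of the other changes was not tested.

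With the replicate number as a block, 5441 probes passed the unadjusted threshold and none the adjusted one. The numbers only name the pools, and no direction among the named genes turned.

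With slide as a fixed block, 32 named genes changed sign and 69 did not. The late minus water differences (log2) became -0.50 for Adcy1, -0.066 for Adcy3, -0.13 for Adrb1, -0.29 for Agrp, -0.018 for Cacna1d, -0.17 for Cacnb4, 0.077 for Clic6, -1.26 for Des, -0.10 for Dio2, 0.23 for Emx1, -2.04 for Fos, 0.00099 for Galr3, -0.81 for Gata3, -0.17 for Glul, -1.63 for Hoxb4, -2.12 for Hoxc10, 0.31 for Htr5a, -0.48 for Irx1, -0.48 for Jup, -0.76 for Kcna2, -0.70 for Kcnq3, -1.30 for Kirrel2, -0.044 for Nr4a2, -2.08 for Orm3, 0.063 for Pdyn, 0.085 for Penk, 1.40 for Pomc, 0.69 for Prl, -0.35 for Rax, -0.64 for Sgcd, -1.13 for Tcf7l2 and -0.20 for Tnni3. The mean over a gene's probes gave -0.20 for Adcy1, -0.24 for Adrb1 and -0.19 for Cacna1d. Gnas and Penk became 0.034 and 0.0059 without scaling. Il6, below background, became 0.22 in the authors' table, 0.072 without the filter and 0.075 with quantile normalization. Gapdh became -0.050 and -0.025 with quantile normalization on all spots and after the filter. Adcy3 became -0.00742 under normexp and -0.022 with base composition removed. Leaving out 1 array at a time, differences ran from -0.035 to 0.065 for Adcy3, from -0.011 to 0.245 for Adrb1, from -0.053 to 0.156 for Agrp, from -0.017 to 0.936 for Fos and from -0.059 to 0.113 for Tnni3, and Adh1 turned to 0.048 without late pool 3. Dimmer probes passed the unadjusted threshold more often, with 25.4% in the dimmest of 5 equal classes and 10.7% in the brightest. The part of brightness in these changes was not tested.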
